A study of Homo sapiens with 6 samples.

Results

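The promoters of 58 genes that encode core spliceosome proteins and splicing regulators around RBM39 were examined by ATAC-seq, among 20033 coding promoters in all. The genes were listed by name, with no cutoff on a measured value, but earlier results of these data were known when they were chosen. A gene's promoter was taken as all positions within 1000 bp of any of its annotated transcription starts (hg38, GENCODE release 44), and all 58 genes were found. For each of 6 libraries the best peak in the promoter, by the −log10 p that the authors' peak caller gave, was ranked among the 20033 coding promoters. The measure used throughout is this percentile rank, from 0 to 100, and differences are in percentile points. Promoters with no peak share the bottom ranks of their library.

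The spliceosome removes introns from pre-mRNA. U1 snRNP recognizes the start of the intron, U2AF1, U2AF2 and SF1 recognize its end and branch point, U2 snRNP with its SF3A and SF3B proteins then binds the branch point, and the tri-snRNP with U5 and the Prp19 complex activate catalysis. SR proteins and hnRNP proteins bind exons and introns and steer which sites are used. RBM39 works with U2AF2 and SF3B1, and indisulam degrades it by recruiting it to the ubiquitin ligase receptor DCAF15, which is why the promoters of its partners are of interest in cells that no longer respond to the drug.

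The cells are SKNAS, a human neuroblastoma line, grown as subcutaneous xenografts in mice. Tumors were dissociated and the adherent cells expanded: naïve cells came from vehicle-treated mice, and R1 and R2 came from tumors that had relapsed for the second time and were taken during another cycle of indisulam. The cultures themselves received no further treatment, and every library was made from 100000 cells. Each of the 3 cell types has 2 libraries. The sources do not say whether these are separate cultures, so p-values measure the spread between libraries only, R1 and R2 each stand for 1 derived culture line, and drug exposure cannot be told apart from the outgrowth of 1 lineage in a mouse. ATAC-seq cuts open chromatin with the Tn5 transposase, so that a peak marks accessible DNA, and a promoter's accessibility is not the level of its transcript.

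The lists ran from 67558 peaks (first R2 library) to 340558 (first R1 library). The background rates recovered from the folds, which follow depth, were highest for R1 (7.94 and 5.43 tags per window), lower for naïve cells (2.29 and 1.35) and lowest for R2 (0.85 and 0.899). Between 2602 coding promoters (first R1 library) and 6904 (first R2 library) had no peak, and their shared percentile ran from 6.49 to 17.2 for that reason. Ranks remove a library's overall depth but not this difference in how many promoters it detects. Both adrenergic and mesenchymal neuroblastoma marker genes had promoter peaks, 6 or 7 of 7 in every library for each list, while PTPRC, CD3E and ALB, which mark leukocytes, T cells and hepatocytes, had none in any list.

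Promoter sequences of members whose ranks are described in detail are shown first, to give the base composition and motif content behind the peaks. They are from RefSeq (GRCh38.p14), written 5′ to 3′ along the gene's strand ending 0 to 4 bases before the RefSeq start (89 for TRA2B), and leave out bases annotated as UTR. Capitals mark matches on either strand to short motifs, here CCGGAAG (ETS), GCATGCGC (NRF1 core), GGGCGG (SP/KLF) and CCAAT (NF-Y), of 10 searched. SF3B5 (chr6:144095574-144095773, minus strand), CLK1 (chr2:200864663-200864862, minus strand) and SRSF6 (chr20:43457693-43457892, plus strand) are members with higher values in R1 and R2, and TRA2B (chr3:185938104-185938264, minus strand) has lower ones. In none of them did a difference from naïve cells pass the test described below. RBM5 (chr3:50088719-50088918, plus strand) lacked a peak in R2, and U2AF1 (chr21:43107571-43107770, minus strand) had one in R1 only.
SF3B5: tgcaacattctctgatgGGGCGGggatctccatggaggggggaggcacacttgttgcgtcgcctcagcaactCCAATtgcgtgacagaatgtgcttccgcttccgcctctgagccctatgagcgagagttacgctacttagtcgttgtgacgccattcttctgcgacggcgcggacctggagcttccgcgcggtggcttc
CLK1: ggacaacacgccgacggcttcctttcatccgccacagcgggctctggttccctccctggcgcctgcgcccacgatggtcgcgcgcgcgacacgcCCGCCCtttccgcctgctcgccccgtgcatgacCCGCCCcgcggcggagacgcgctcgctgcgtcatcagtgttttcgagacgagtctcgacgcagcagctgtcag
SRSF6: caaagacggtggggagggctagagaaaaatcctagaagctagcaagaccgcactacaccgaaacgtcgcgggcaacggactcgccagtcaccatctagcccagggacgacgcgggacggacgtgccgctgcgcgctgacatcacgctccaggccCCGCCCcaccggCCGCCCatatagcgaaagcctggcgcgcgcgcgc
TRA2B: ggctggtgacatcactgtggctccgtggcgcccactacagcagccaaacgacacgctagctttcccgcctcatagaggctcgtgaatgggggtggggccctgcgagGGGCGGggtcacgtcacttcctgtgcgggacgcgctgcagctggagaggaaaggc
RBM5: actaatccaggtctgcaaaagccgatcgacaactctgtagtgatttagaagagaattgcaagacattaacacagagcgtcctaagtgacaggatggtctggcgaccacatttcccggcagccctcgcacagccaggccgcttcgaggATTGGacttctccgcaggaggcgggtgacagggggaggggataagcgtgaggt
U2AF1: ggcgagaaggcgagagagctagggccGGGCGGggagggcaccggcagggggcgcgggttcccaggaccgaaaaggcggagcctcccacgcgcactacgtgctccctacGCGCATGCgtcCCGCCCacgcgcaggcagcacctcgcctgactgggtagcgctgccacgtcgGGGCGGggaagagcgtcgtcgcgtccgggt

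For SF3A2 (chr19:2236803-2236832, plus strand) and SF3A1 (chr22:30356926-30356955, minus strand), whose promoters are shared with an oppositely transcribed gene, only the 30 bases around the ETS match are given. The SF3A2 stretch runs 9 bases past the RefSeq start. These members moved in opposite directions between R1 and naïve cells and carry the same ETS letters.
SF3A2: gtctcatttgccCCGGAAGtgctttctttg
SF3A1: gaggggacggtcCCGGAAGtgcgccagtcg

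A RefSeq promoter of 300 bases, 250 before and 50 after the start, was matched for 51 of the 58 members and for 15345 coding genes. The ETS letters occurred in 15 of 51 members (29.4%), against 14.4% of all coding promoters and 34.2% of the other splicing genes matched. Of the U2 snRNP group, SF3A1, SF3A2, SF3A3, SF3B2, SF3B4, SF3B6 and U2AF2 carried them. SP/KLF letters occurred in 62.7% of members and 59.2% of all, NF-Y letters in 37.3% and 36.6%, the NRF1 core in 5.88% and 4.25%, and the YY1 letters AAGATGGC in 7.84% and 3.97%. The ZBTB33 core CTCGCGAG was found in 4 members, CDC5L, HNRNPK, SRSF10 and SRSF4 (7.84%), against 1.58% of all promoters. The CRE letters TGACGTCA and the ZNF143 core ACTACAAT were in 0 members, against 2.64% and 0.723%. E-box letters CACGTG were in 5.88% and 8.89%, and TATAAA in 9.8% and 9.63%. The members' median CpG ratio, observed over expected, was 0.984 against 0.767, while their median GC content of 62.7% was close to the 63% of all promoters. These shares describe letters in a window and were not tested.

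The members' promoters ranked above the median of all coding promoters in all 3 cell types. The median percentile of the 58 genes was 74.0 and 76.5 for naïve cells, 70.8 and 70.5 for R1, and 74.6 and 75.9 for R2, where the median of all coding promoters lay between 49.6 and 51.6. Between 47 and 51 of the 58 lay above percentile 50 in each library. In tags at the summit, the members' median was 38 and 27.5 for naïve cells, 167 and 109.5 for R1, and 19.5 and 20 for R2. With the median of promoters of like GC content subtracted, the members' median was still 20.8 points above 0 and 50 of 58 members were above it. The 134 other splicing genes listed for comparison had medians of 67.3 to 73.3.

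**Figure D1:**
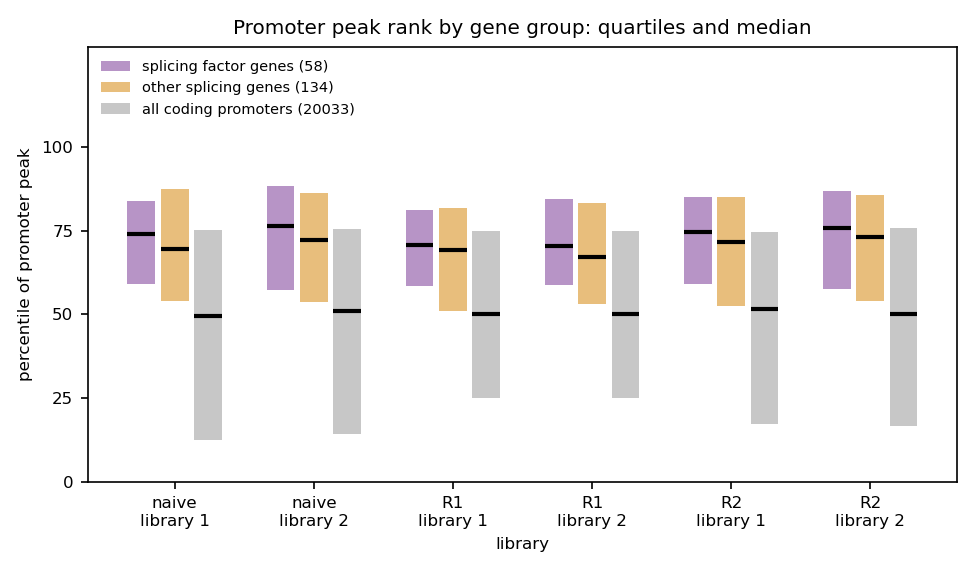
Percentile of the best promoter peak (vertical axis) in each of the 6 libraries for the 58 splicing factor genes, 134 other splicing genes and all 20033 coding promoters. Boxes run from the lower to the upper quartile and black lines mark the median: the medians of the splicing factor genes sit between 70.5 and 76.5 in every library, above those of all coding promoters at 49.6 to 51.6. Promoters with no peak are included at the shared bottom rank of their library.

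A promoter peak was found for 55 and 56 members in naïve cells, for all 58 in R1, and for 54 in each R2 library, and 51 members (87.9%) had one in all 6 libraries, against 59.5% of coding promoters. The members without a peak somewhere were SRSF8, U2AF1, RBM5, SF3B5, SRPK1, SF3B3 and PRPF8. The median distance from a member's nearest annotated start to its summit was 26.5 to 60 bp upstream, and 32 to 42 members per library had the summit within 100 bp of a start. Their median peak width was 487.5 and 568 bp for R2, 712 and 608.5 bp for naïve cells and 1238.5 and 1225.5 bp for R1, in the order of depth.

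In 15 members another coding gene starts within 1000 bp, so that a peak between the starts can count for both. Among these, SRSF2 is paired with MFSD11, SF3A2 with PLEKHJ1, SF3A1 with CCDC157, SF3B3 with COG4, SNRPA with ACTMAP, SNRPD2 with QPCTL, SNRPD3 with GUCD1, PRPF31 with TFPT, HNRNPA1 with CBX5, HNRNPA2B1 with CBX3, HNRNPK with RMI1, RBM10 with NDUFB11 and EFTUD2 with CCDC103. For DDX39B, PRPF8 and PRPF31, 100%, 100% and 96.7% of the words of 32 bases around the start also occur on alternate sequences of hg38, and whether the authors' genome held those is not given in the sources used here.

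By role, SR proteins, which bind exonic enhancers, held 3 of the 5 highest means (SRSF2, SRSF9 and SRRM1). SRSF2 (percentile 96.7 and 98.3 in naïve, 97.1 and 96.8 in R1, 99.2 and 95.3 in R2) had the highest mean, 97.2, although its summit lay 571 to 607 bp from its start on the side of the divergent gene MFSD11. HNRNPU, SRSF9, SRRM1 and PUF60 followed with means of 94.8, 94.6, 93.7 and 92.2. The median of the members' mean percentiles was 83.1 for the 7 hnRNP proteins, 77.6 for the 15 SR proteins, 76.3 for the 7 U1 and Sm core proteins, and 73.3 for the 14 genes of U2 snRNP and 3′ splice site recognition. It was 61.3 for the 4 genes of the Prp19 complex and helicases, 57.7 for the 6 genes of U5 and the tri-snRNP, 50.9 for the 3 RBM regulators and 50.5 for the kinases SRPK1 and CLK1. The lowest means belonged to U2AF1 (18.7), SF3B3 (24.8), RBM5 (29.4), SRSF8 (35.5) and CDC5L (38.8). SRSF8 and SF3B3 had peaks of only 9 to 63 tags where they had any.

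**Figure D2:**
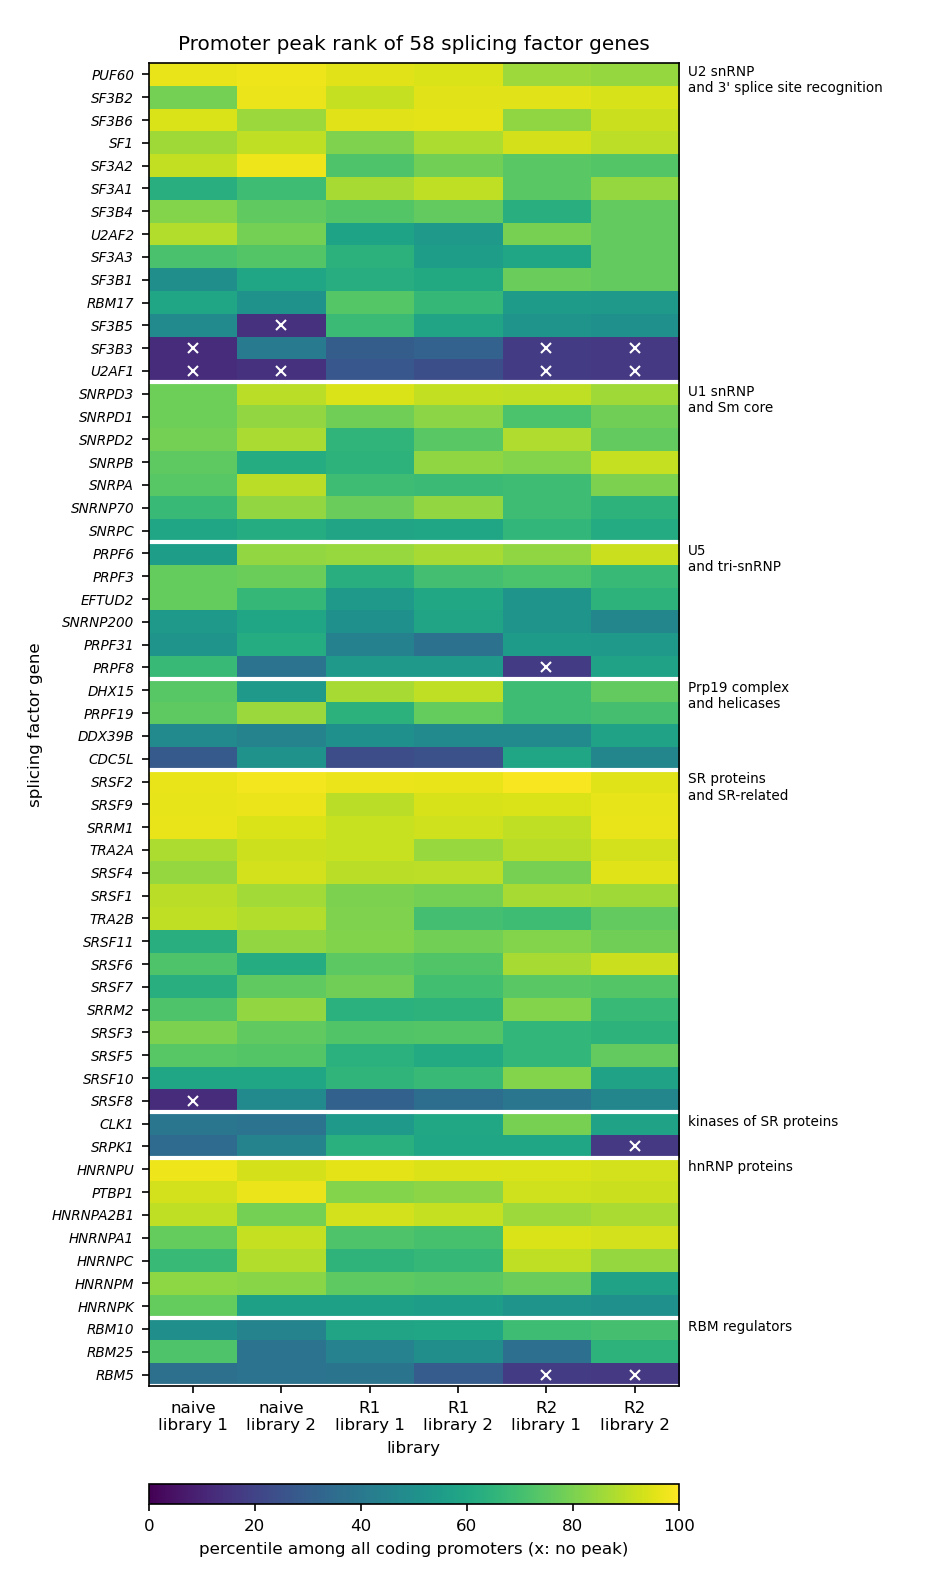
Heat map of the percentile of each member's best promoter peak (color, 0 to 100) in the 6 libraries (columns), with the 58 genes (rows) grouped by role and sorted by mean. White crosses mark libraries with no peak: U2AF1 has peaks in R1 only, and SRSF2 stays above 95 in every library.

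Counting error was wide beside the differences between replicate libraries. The 95% exact Poisson interval of the tags at the summit, read as percentiles, had a median width of 16.1 and 19.8 points in the R1 libraries, 31.6 and 34.4 in naïve cells, and 41.2 and 40.4 in R2, and it covers counting error only. For all 54 members with peaks in both naïve libraries, all 58 in R1 and all 53 in R2, the intervals of the replicates overlapped. No member had both R1 intervals wholly above or wholly below both naïve intervals, among 54 with peaks in those libraries, and the same held for R2 among 51. Over all coding promoters with peaks, 1.2% lay above and 1.31% below in R1, and 0.101% above and 0.0503% below in R2. Differences of 10 to 20 points in a single member are therefore near the limit of what these libraries resolve, R2 above all.

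Ranks were compared between cell types with limma across all coding promoters (Benjamini-Hochberg adjusted p under 0.05). R1 differed from naïve cells at 24.8% of coding promoters, and 5 of 58 members passed. Of the 4970 promoters called, 2451 had no peak in any library, so that their call compares the depth-dependent shared ranks alone. Among the 11929 promoters with a peak in all 6 libraries, ranked among themselves, 6.68% passed and 1 of 51 members did. The members' median shift was −1.76 points, against −1.43 for all coding promoters, with 25 members above 0 and 33 below. These medians are not alike, since every member had a peak in R1. The −1.43 includes promoters with no peak, whose shared rank is lower in R1 than in naïve cells. Among promoters with a peak in all 6 libraries the medians were −3.37 for members and −0.706 for all, with 19 members above 0 and 32 below. The members were not tested as a set.

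By role, 4 of the 14 genes of U2 snRNP and 3′ splice site recognition passed (U2AF1, U2AF2, SF3A1 and SF3A2). That is 28.6%, beside 24.8% of all coding promoters. The shares are not alike, since the 24.8% includes the 2451 promoters with no peak in any library. Every gene of the group had a peak in R1, and U2AF1 had none in naïve cells. Of the 14 shifts, 8 were above 0, with values from −27.8 to 32.3 points. Of the 7 hnRNP genes, PTBP1 passed and 1, HNRNPA2B1, had a shift above 0, with a group median of −10.0. None of the other 6 groups had a member that passed, and the 15 SR proteins ranged from −13.9 to 7.38 with a median of −1.72.

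U2AF2, which encodes the large U2AF subunit that binds the polypyrimidine tract, had the largest called fall in R1. Its percentile was 88.3 and 79.1 for naïve cells, 58.0 and 53.8 for R1, and 79.3 and 75.9 for R2, so that both R1 libraries lay below the other 4. The shift from naïve to R1 was −27.8 ± 5.05 points (SE; limma adjusted p = 0.0083), and R1 was also below R2 by −21.7 ± 5.05 (limma adjusted p = 0.028). The summit lay 318 to 392 bp upstream of the nearest start in 5 libraries and 186 bp downstream in the second naïve library. Other coding promoters within 5 Mb, on chromosome 19, moved by −6.88 points between naïve cells and R1.

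SF3A2 and SF3A1 encode subunits of the same SF3A complex of U2 snRNP and went opposite ways. SF3A2 had percentiles of 90.8 and 97.4 for naïve cells, 72.5 and 78.5 for R1, and 74.6 and 73.3 for R2, with no overlap between the naïve and the resistant libraries. Its shift was −18.6 ± 3.89 points in R1 (limma adjusted p = 0.015) and −19.4 ± 3.37 in the resistant mean of R1 and R2 (limma adjusted p = 0.039). SF3A1 had 62.8 and 69.0 for naïve cells, 86.8 and 90.5 for R1, and 74.6 and 84.1 for R2, a shift of 22.8 ± 4.75 points in R1 (limma adjusted p = 0.015). In R1 neither passed with GC adjustment (limma adjusted p = 0.06 at SF3A2 and 0.068 at SF3A1) or among promoters with a peak in all libraries (limma adjusted p = 0.068 and 0.064). The coding promoters within 5 Mb of SF3A2 moved by −21.1 points and those within 5 Mb of SF3A1, on chromosome 22, by 21.0 points in the same contrast. SF3A2 starts 495 bp from PLEKHJ1 and SF3A1 starts 113 bp from CCDC157, both on the opposite strand, so the peaks are shared with those genes.

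PTBP1, an hnRNP protein that represses exons flanked by pyrimidine tracts, ranked lower in R1 than in either other cell type. Its percentile was 93.2 and 96.9 for naïve cells, 81.3 and 82.6 for R1, and 92.6 and 92.1 for R2. It shifted by −13.1 ± 2.34 points between naïve cells and R1 (limma adjusted p = 0.0078) and was the member that also passed among promoters with a peak in all libraries (limma adjusted p = 0.029). R1 was below R2 by −10.4 ± 2.34 points (limma adjusted p = 0.025). The surrounding coding promoters on chromosome 19 moved by −20.0 points between naïve cells and R1.

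U2AF1, the small U2AF subunit that contacts the AG at the intron's end, had a called rise in R1 that rests on detection. Peaks were present only in R1, with 54 and 32 tags and widths of 216 and 209 bp, and none was called in naïve cells or R2. The percentiles were 27.2 and 24.2 in R1 beside the shared bottom ranks of 12.6 and 14.3 in naïve cells and 17.2 and 16.7 in R2, and the shift was 12.3 ± 1.79 points (limma adjusted p = 0.0035). Of the 969 words of 32 bases within 500 bp of its start, 85.8% also occur in a second copy at chr21:6498748-6499747. Only 138 words were found once, 32 of them touching each R1 peak, and no list held a peak at the copy. The authors kept reads with a mapping quality of at least 1, so reads that fit both copies equally well would be lost, and the level of this promoter is uncertain in all cell types.

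R2 differed from naïve cells at 0% of coding promoters by limma, with 5953 promoters and 10 members at an unadjusted p under 0.05. The smallest adjusted p of a member was 0.0546, shared by PUF60, RBM5 and SF3A2 among others, and other settings gave up to 4424 calls over all coding promoters (without the second naïve library) and up to 6 among the members. Among promoters with a peak in all libraries, 0.62% passed and 1 of 51 members, PUF60, did (limma adjusted p = 0.043). The members' median shift was −1.51 points, against 2.37 for all coding promoters, of which those with no peak move upward with the shared rank.

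PUF60, which helps U2AF recognize weak 3′ splice sites, had percentiles of 96.7 and 97.4 for naïve cells, 95.7 and 94.4 for R1, and 85.2 and 84.1 for R2. In naïve cells and R1 the best peak was a merged region of 8381 to 24861 bp whose summit lay 2669 to 2739 bp inside the gene, and in R2 it was a peak of 771 and 787 bp with its summit 59 and 1 bp upstream of a start. With only peaks whose summit lies within 1000 bp of a start, a choice made after seeing the data, R1 was above R2 (limma adjusted p = 0.025). With the local median subtracted the sign turned (−4.73 points, limma adjusted p = 0.42; local shift 15.1), and among promoters with a peak in all libraries the difference did not pass (limma adjusted p = 0.054). RBM5, a regulator of exon inclusion, had 37.1 and 38.0 for naïve cells, 38.5 and 28.9 for R1 and no peak in R2. With 17 and 12 tags in naïve cells, a lower level in R2 cannot be told apart from the lower depth of those libraries.

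Both resistant cell types together differed from naïve cells at 5.1% of coding promoters, and 2 of 58 members passed: SF3A2 (−19.4 points) and U2AF1 (7.91 ± 1.55 points, limma adjusted p = 0.047). For U2AF1 the naïve and R2 values are the shared bottom ranks, which depth sets and which hardly vary within a cell type, so the pooled call does not measure a level in R2. Among promoters with a peak in all libraries, 2.92% passed and 0 of 51 members did, with a smallest adjusted p of 0.056 for a member by limma. An unadjusted limma p under 0.05 was found for 12 of the 51 members, beside 2783 of these 11929 promoters. All 4 resistant libraries lay above both naïve libraries for 7 members (12.1%), against 16.3% of coding promoters, and below both for 8 members (13.8%), against 11.9%. Both shares are near the background.

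Of members that did not pass, the largest positive values between resistant and naïve cells were SF3B5 (26.1 ± 10.3 points), CLK1 (24.1 ± 7.80), SF3A1 (18.1 ± 4.11), RBM10 (17.1 ± 5.30) and PRPF6 (17.1 ± 7.72). CLK1, a kinase that phosphorylates SR proteins, had 39.3 and 38.0 for naïve cells, 53.7 and 60.1 for R1, and 79.3 and 57.8 for R2, above the naïve libraries in all 4 resistant ones (limma adjusted p = 0.13). Its peaks held 18 and 12 tags in naïve cells and 21 and 14 in R2. Its neighbourhood had a local shift of −0.039 points, while these were 12.7 for SF3B5, 9.06 for RBM10 and 12.9 for PRPF6. SF3B5, a small SF3B subunit, lacked a peak in the second naïve library (percentile 14.3) beside 47.7 in the first, 68.3 and 58.4 for R1, and 51.6 and 50.1 for R2. The value for PRPF6, a bridge of the tri-snRNP, leans on the first naïve library (55.6 against 83.7 in the second), whose merged peak had its summit 2294 bp away.

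The largest negative values that did not pass were U2AF2 (−17.0 ± 4.37 points), TRA2B (−15.4 ± 4.16), EFTUD2 (−14.1 ± 6.34) and HNRNPK (−12.9 ± 7.15). TRA2B, an activator of exons rich in purines, had 90.3 and 88.6 for naïve cells, 80.8 and 70.3 for R1, and 69.0 and 75.9 for R2 (limma adjusted p = 0.087), with a local shift of −5.72. EFTUD2, the GTPase of U5 snRNP, had 76.5 and 66.8 in naïve cells and 51.6 to 64.7 in the resistant libraries, and its promoter is shared with CCDC103. HNRNPK ranged from 50.1 to 56.9 in the resistant libraries and had 76.5 and 56.6 in naïve cells. Its second naïve library thus lay within the resistant range.

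**Figure D3:**
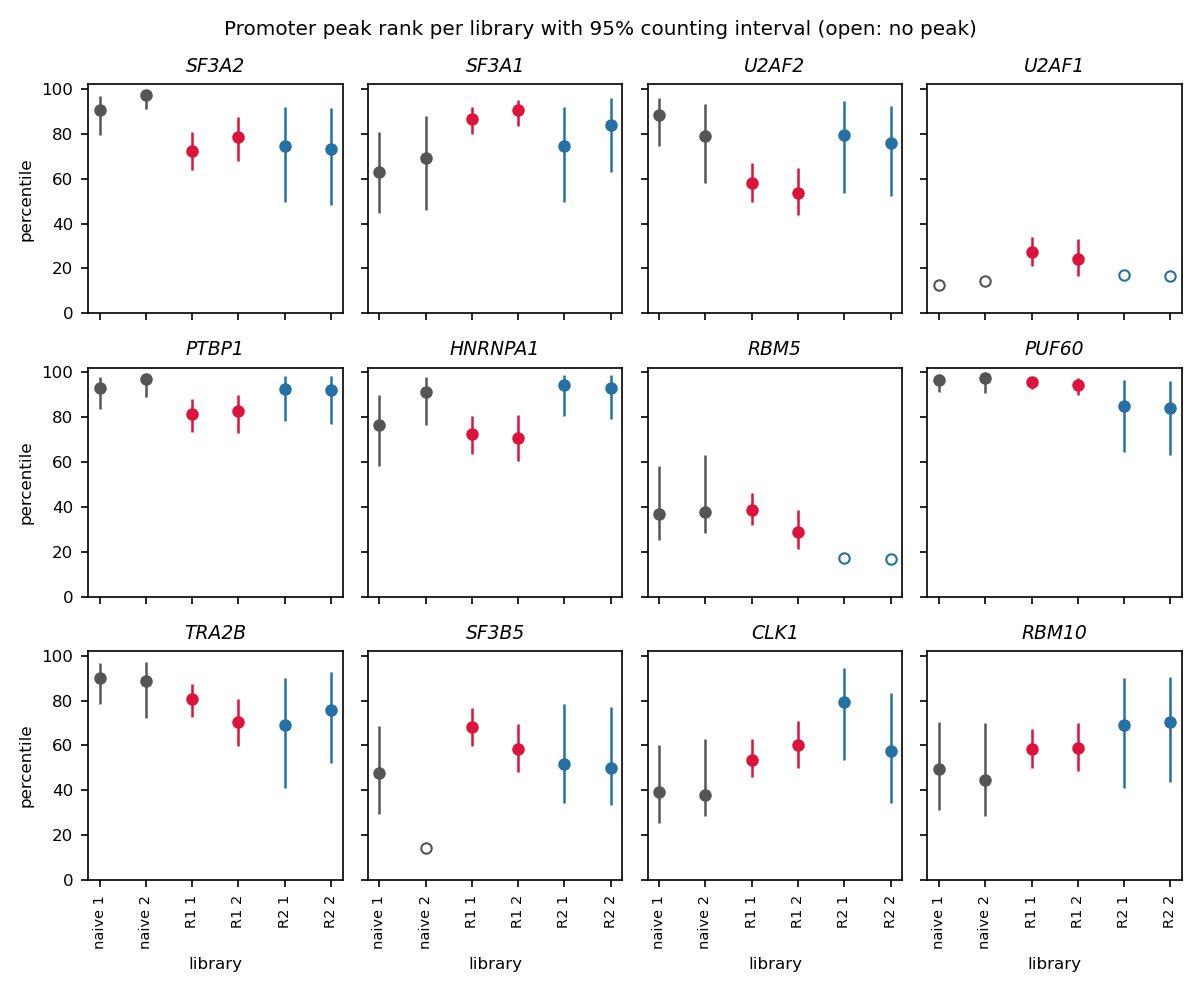
Percentile of the promoter peak (vertical axis, 0 to 100) in each library for 12 members. Points are libraries (gray naïve, red R1, blue R2), lines are 95% counting intervals and open circles mark no peak; the intervals of R2 are the widest, and the R1 points of U2AF2 and PTBP1 lie below those of both other cell types.

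R1 and R2 differed from each other at 19.3% of coding promoters, of which 2451 of 3862 had no peak in any library, and 6 of 58 members passed (10.3%). R1 was lower at U2AF2, PTBP1 and HNRNPA1, and higher at PUF60, U2AF1 and RBM5. HNRNPA1, which encodes a repressor of 3′ splice site use, had 72.5 and 70.8 for R1 and 94.3 and 93.0 for R2, with 76.5 and 91.4 in naïve cells, both between those of R1 and R2. The difference between R1 and R2 was −22.0 ± 5.07 points (limma adjusted p = 0.028). U2AF1 and RBM5 have no peak in R2, where their values are the shared bottom ranks. GC adjustment ended 4 of the 6 calls, with limma adjusted p of 0.83 at RBM5 (whose difference became 1.91 points), 0.21 at HNRNPA1, 0.13 at U2AF1 and 0.06 at U2AF2, and the replicate block ended that on RBM5 (limma adjusted p = 0.079). With the local median subtracted, none of the 6 passed (limma adjusted p = 0.063 to 0.42). Among promoters with a peak in all libraries, 1.08% passed and 0 of 51 members did. An unadjusted limma p under 0.05 was found for 9 of the 51 members, beside 2249 of these 11929 promoters. The contrasts with naïve cells share the 2 naïve libraries, and no correlation between them was computed.

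The members' values resembled those of the promoters around them. The shift of each member between resistant and naïve cells was set beside that of the other coding promoters within 5 Mb, 20 to 342 promoters with a median of 122. Across the 58 members Pearson's r was 0.63 and Spearman's rho 0.56, and 41 had the same sign, a description across genes that share libraries and, in part, neighbourhoods. All 8 members on chromosome 19 had negative values, from −19.4 at SF3A2 to −2.09 at SNRNP70, and the median of the 1476 coding promoters there was −8.48. All 3 members on chromosome 20, PRPF6, SRSF6 and SNRPB, had positive values of 11.6 to 17.1, with 8.92 for 546 coding promoters, and both on chromosome 22, SF3A1 and SNRPD3, had 18.1 and 6.67, with 8.51 for 447. SRSF6 had percentiles of 72.6 and 61.8 for naïve cells, 74.6 and 72.9 for R1, and 86.8 and 92.1 for R2. Its shift between resistant and naïve cells did not pass (limma adjusted p = 0.1), and its local shift was 14.9. With the local median subtracted, 1 of 58 members passed in R1 against naïve cells, U2AF1 (limma adjusted p = 0.044), whose naïve values are the shared bottom ranks. SF3A2 then had 2.51, SF3A1 1.79 and PTBP1 6.94 points (limma adjusted p = 0.76, 0.9 and 0.19), and U2AF2 −20.9 (limma adjusted p = 0.18). The part of DNA copy number in these regional shifts was not tested.

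**Figure D4:**
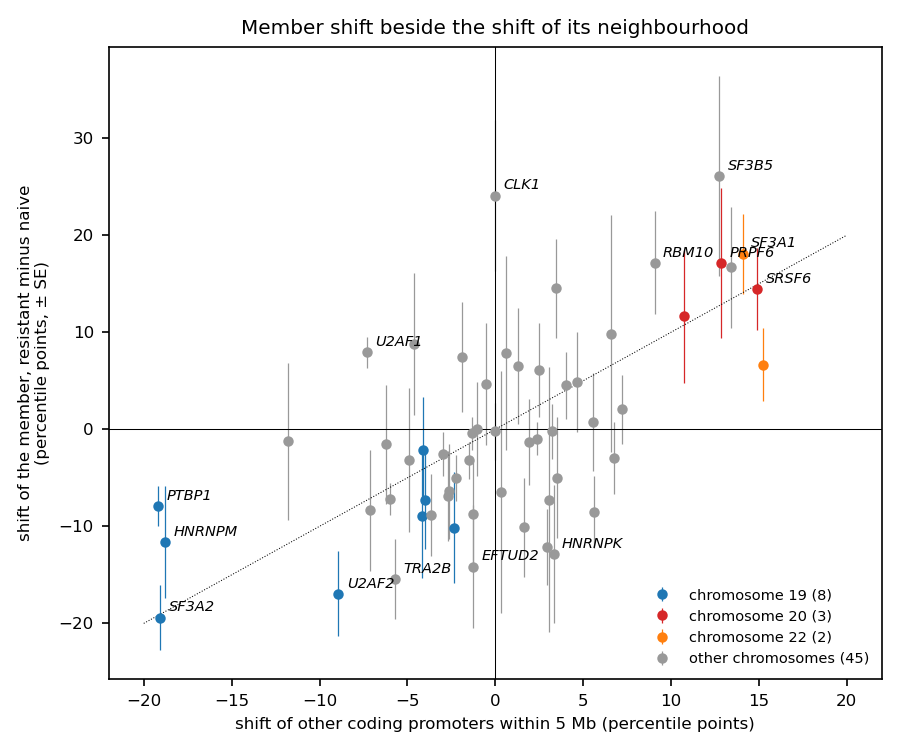
Shift of each of the 58 members, resistant minus naïve, in percentile points with its SE (vertical axis), against the shift of the median coding promoter within 5 Mb (horizontal axis). Members on chromosome 19 lie below 0 and those on chromosomes 20 and 22 above 0; the dotted line marks equal shifts, and CLK1 stands at 24.1 beside a local shift near 0.

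RBM39 itself, on chromosome 20, had percentiles of 71.1 and 79.1 for naïve cells, 81.6 and 88.5 for R1, and 96.6 and 82.2 for R2. Its shift of 12.1 ± 5.00 points did not pass (limma adjusted p = 0.21), and its neighbourhood moved by 12.7. Of the 134 other splicing genes, 2 passed with a rise and 1 with a fall between resistant and naïve cells. This is a smaller share than the 5.1% of all coding promoters that passed. The genes were MBNL2 (29.6 points, local shift 29.6), SYNCRIP (24.9, local 16.8) and XAB2 (−25.0, local −18.5, limma adjusted p = 0.0498). The other large values, which did not pass, were LSM7 at −29.9 and ELAVL1 at −20.3, both on chromosome 19, and SRSF12 at 28.5 and PHF5A at 25.5. The median of these 134 genes was −0.0955 points, against −1.3 for all coding promoters and −1.42 for the 58 members. Among promoters with a peak in all 6 libraries these medians were −0.242, −0.454 and −2.39 points in the same order.

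The calls depend on single libraries. For SF3A2 between resistant and naïve cells, leaving out any library but the first of R2 ended the call (limma adjusted p up to 0.1, and 0.048 without the first of R2), and for U2AF1 each of the 6 did (limma adjusted p = 0.063 to 0.088). In R1 against naïve cells, the call on PTBP1 was lost without the first R1 library (limma adjusted p = 0.052) and that on U2AF2 without the second (limma adjusted p = 0.052). The call on SF3A2 was lost without the second naïve or the first R1 library, and that on SF3A1 without the first naïve or either R1 library. That on U2AF1 held without each library in turn, with shifts of 10.7 to 13.8 points. Its naïve values are the shared bottom ranks, which depth sets and which hardly vary, so this does not measure how stable its level is. Between R1 and R2, leaving out any R1 or R2 library ended the calls on HNRNPA1, PTBP1, RBM5 and U2AF2, either R1 library that on PUF60, and the first R1 or either R2 library that on U2AF1 (limma adjusted p up to 0.24). With 1 library left, a cell type was assumed to vary like the others.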

How the data were processed

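ATAC-seq libraries of SKNAS cells were compared, 2 each of naïve, R1 and R2 cells. The authors used BWA 0.7.12-r1039 for alignment, Picard 1.65 for duplicates and SAMtools 1.3.1 to filter reads, and ran MACS2 2.2.7.1 on each library (q of 0.01, extension of 200 bp). Per the submitters' processing notes hg19 and hg38 were used, and the methods name hg19. The coordinates fit hg38, with at least 9929 bp left to a chromosome's end, and were read as hg38. The deposited columns are a fold over background (a ratio) and −log10 p and −log10 q values, as MACS2 wrote them. The read counts were not used here, and tags at the summit were recovered from the fold, since MACS2 adds 1 to tags and background before dividing.

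Percentile ranks used peaks within 1000 bp of a start. Group means of all 6 libraries were fitted with limma 3.58.1 (mean and variance trend) in R, with p adjusted over all coding promoters. The functions were tested on simulated data. Genes named singly are members that passed in any of the 4 contrasts, the 5 highest and lowest means, the 5 largest rises and falls, members without a peak somewhere or with a duplicated or shared promoter, RBM39, and the 3 largest rises and falls of the other splicing genes. SYNCRIP, SNRPB and SNRNP70 were named after their values were seen. The members, lists and tests were chosen with earlier results of these data known. Same-numbered libraries did not deviate together (correlations of replicate differences −0.02 to 0.065). Alternatives were the canonical start, 500 bp, a −log10 q of at least 5, ranking by fold, normal scores, promoters with a peak in all libraries, 20 GC bins over 500 bp, the median within 5 Mb, a replicate block, each library left out, and, added after seeing the data, summits within 1000 bp.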

Additional observations from a re-analysis of the deposited data

Results flagged for a closer look

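R1 and R2, both set against the same naïve libraries, differed at 6 of 58 members (10.3%) in the limma test of R1 minus R2. The share of all coding promoters was 19.3%, but 2451 of those 3862 calls had no peak in any library, whereas every member had one in R1. These shares are therefore not alike. The difference was 10.4 points at PUF60 (limma adjusted p = 0.011), 8.69 at U2AF1 (0.017), −10.4 at PTBP1 (0.025), −22.0 at HNRNPA1 (0.028), −21.7 at U2AF2 (0.028) and 16.7 at RBM5 (0.0495). The local median moved by 15.1 points at PUF60, −1.12 at U2AF1, −1.67 at PTBP1, 4.6 at HNRNPA1, 4.08 at U2AF2 and 0.693 at RBM5 in the same contrast. U2AF1 and RBM5 have no peak in R2. With GC adjustment the calls on RBM5, HNRNPA1, U2AF1 and U2AF2 did not pass, and with the replicate block that on RBM5 did not. Among promoters with a peak in all 6 libraries, 1.08% passed and 0 of 51 members did.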

How the results depend on the processing

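With the fit limited to promoters with a peak in all 6 libraries, calls over all promoters were 797 (R1 against naïve), 74 (R2 against naïve), 348 (resistant against naïve) and 129 (R1 against R2), with 1, 1, 0 and 0 members. The members' median shift was then −3.37 in R1 against naïve and −3.36 in R1 against R2, beside −0.706 and −0.495 for all these promoters. Their median rank among these fewer promoters was 65.4 (naïve), 56.4 (R1) and 60.7 (R2). GC adjustment gave 1723, 900, 1851 and 1892 calls among all 20033 coding promoters in the same order, with 4, 3, 3 and 5 of the 58 members. Subtracting the local median gave 1047, 388, 1 and 1645 calls with 1, 0, 0 and 1 members. The members' median shift was then 0.563 in R2 against naïve and −3.47 in R1 against R2, and PTBP1 (6.94) and SF3A2 (2.51) in R1 against naïve and PUF60 (−4.73) in R1 against R2 changed sign. The cause was not tested.

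R2 against naïve had 0 calls in the main fit among 20033 coding promoters and 58 members. It had 4334 with the canonical start alone and 3985 at 500 bp, with 6 of the 58 members each. When summits had to lie within 1000 bp it had 3757 with 5 members, and with normal scores 1. How many of these calls fell on promoters without a peak was not counted. Resistant against naïve had 1 member at a −log10 q of at least 5 and 1 with normal scores. The replicate block left 0 calls and 0 members in resistant against naïve and moved no other count of calls by over 1.5 times. Replicate differences correlated between cell types at −0.02 to 0.065, so the numbers were not taken to pair the libraries. The members' median rank was 77.4 (naïve), 72.8 (R1) and 77.4 (R2) with the canonical start, 70.9 in R1 at 500 bp and 72.3 in R1 with the summit rule.

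Leaving out 1 library at a time gave 3827 to 5657 calls and 2 to 9 members in R1 against naïve, with a median shift of −3.12 to −0.644. R2 against naïve had 0 to 4424 calls, 0 to 6 members and a median shift of −1.53 to 1.1. Resistant against naïve had 0 to 789 calls, 0 to 2 members and −3.42 to 0.211, and R1 against R2 3234 to 4612 calls, 0 to 11 members and −2.37 to 0.986. The members' median rank stayed within 74.0 to 76.5 (naïve), 70.5 to 70.8 (R1) and 74.6 to 75.9 (R2). For named members, 249 settings kept direction and side of the threshold, 71 kept direction but lost the call, 2 gained one and 3 reversed. The 249 include members that were not called in the main fit and stayed so, such as CLK1, SF3B5 and TRA2B between resistant and naïve cells. Ranking by fold gave the same ranks, so it counts as kept for every named member. The 249 therefore do not measure how stable the calls are. The 71 lost and 3 reversed all concern calls of the main fit. Depth limits R2, whose members had a median of 19.5 and 20 tags.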
